A study of Mus musculus with 12 samples.

Results

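The genes described here encode the machinery of mitochondrial respiration. They are the nuclear genes for the respiratory chain and ATP synthase, and those for the ribosome that translates the few proteins made inside the mitochondrion. Members were chosen by name: a symbol that starts with Nduf, Sdh followed by a to d, Uqcr, Cox followed by a number from 4 to 8, Atp5, Mrpl or Mrps. The array carried 88 such genes on 101 probes, of 8115 genes that could be named on it. Of these, 53 belong to the chain and its assembly and 35 to the mitochondrial ribosome. A probe was analysed when it exceeded the background limit on at least 2 of 12 arrays, and 84 members passed, 51 of the chain and 33 of the ribosome. Sdha, which encodes the flavoprotein of complex II, did not pass on its only probe, nor did Ndufaf6, Mrpl32 and Mrps36. The level of these 4 genes is not described.

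All 12 samples came from Apcmin mice, which carry a mutated copy of the tumour suppressor Apc and form intestinal adenomas. The 3 genotypes were wild type for Notch, Notch-inactivated (Vil-Cre;Mib1f/f) and Notch-activated (Vil-Cre;RosaN1+/RN1), and for each of them 2 arrays hold normal tissue and 2 hold tumours, which makes 6 groups. Villin-Cre acts in the gut epithelium, so the alleles are altered there and not in stroma or immune cells. Mib1 encodes a ubiquitin ligase on which Notch ligands depend for signalling, and RosaN1 is a Notch1 transgene at the Rosa locus. Age and the segment of gut are not given in the labels, and it is not stated whether the 2 arrays within a group stem from different mice. The p-values therefore cover only the spread between the arrays as labelled, and that spread could be technical.

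The respiratory chain passes electrons from NADH and succinate to oxygen through complexes I to IV and pumps protons, and complex V, the ATP synthase, uses that gradient to make ATP. Complex I is the NADH dehydrogenase (Nduf genes), complex II the succinate dehydrogenase (Sdh), complex III the cytochrome bc1 complex (Uqcr) and complex IV the cytochrome c oxidase (Cox). All complexes except complex II combine subunits from nuclear genes with subunits from mitochondrial DNA, and the latter are made on the mitochondrial ribosome. In the intestine, differentiated absorptive cells are rich in mitochondria, and colonocytes burn butyrate from the gut flora.

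Many genes of the chain share promoter motifs of the nuclear respiratory factors. Promoters from RefSeq (GRCm38.p6), 250 bases before to 50 bases after the transcription start, were found for 78 of the 88 members. The 9-base NRF1 motif GCGCANGCG, searched on both strands, occurred in 29.5% of member promoters (33.3% of the chain's 45 and 24.2% of the ribosome's 33) against 7.03% of the 27025 genes with a promoter. The GABPA motif CCGGAAG occurred in 35.9% of member promoters against 9.93% of all, and the YY1 motif AAGATGGCG in 11.5% against 1.64%. The oestrogen-related receptor motif TCAAGGTCA was in 0 of the 78 and in 0.466% of all. These 4 promoters are shown because their genes had the largest falls in wild type tumours among the chain members (Cox7a1, Atp5k and Cox6a1) or rose against the rest (Ndufa4), with the motif letters in capitals and the sense strand written 5′ to 3′.
Cox7a1 (chr7:30183921-30184220, strand +): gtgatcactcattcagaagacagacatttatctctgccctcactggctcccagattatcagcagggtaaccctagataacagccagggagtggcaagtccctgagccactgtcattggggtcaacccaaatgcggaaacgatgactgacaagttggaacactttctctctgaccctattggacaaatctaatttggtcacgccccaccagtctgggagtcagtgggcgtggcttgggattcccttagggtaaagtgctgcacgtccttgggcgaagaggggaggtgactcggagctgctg
Cox6a1 (chr5:115348909-115349208, strand -): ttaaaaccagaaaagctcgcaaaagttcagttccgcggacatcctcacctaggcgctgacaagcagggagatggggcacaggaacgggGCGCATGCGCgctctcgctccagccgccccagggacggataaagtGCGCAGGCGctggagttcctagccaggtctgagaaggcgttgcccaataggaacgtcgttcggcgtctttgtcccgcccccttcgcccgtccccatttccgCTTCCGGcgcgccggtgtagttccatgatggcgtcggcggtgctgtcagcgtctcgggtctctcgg
Atp5k (chr5:108434350-108434649, strand -): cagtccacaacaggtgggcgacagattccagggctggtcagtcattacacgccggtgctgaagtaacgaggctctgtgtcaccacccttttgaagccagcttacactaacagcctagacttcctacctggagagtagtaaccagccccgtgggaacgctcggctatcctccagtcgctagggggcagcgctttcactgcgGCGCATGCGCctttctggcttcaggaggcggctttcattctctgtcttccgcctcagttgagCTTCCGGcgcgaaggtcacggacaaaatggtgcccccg
Ndufa4 (chr6:11907401-11907700, strand -): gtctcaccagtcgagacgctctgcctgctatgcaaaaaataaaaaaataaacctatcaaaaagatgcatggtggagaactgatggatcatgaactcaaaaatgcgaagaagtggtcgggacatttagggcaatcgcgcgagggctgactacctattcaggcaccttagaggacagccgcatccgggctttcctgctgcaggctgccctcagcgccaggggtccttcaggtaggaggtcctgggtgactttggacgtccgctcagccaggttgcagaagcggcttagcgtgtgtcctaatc
Cox6a1 and Atp5k each carried a pair of NRF1 matches that overlap on opposite strands, and a GABPA match on the reverse strand. Cox6a1 held a further NRF1 match on the forward strand alone. Cox7a1 and Ndufa4 held none of the 4 motifs in this window. Among chain genes that fell in wild type tumours, 27.3% of 33 promoters held an NRF1 match and 33.3% a GABPA match. Among those measured that did not fall, the shares were 45.5% and 27.3% of 11.

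Values are log2 signals, so a difference of 1 is a doubling. The log base was inferred from the range of the values. Replicate arrays correlated with r between 0.9856 and 0.9913 over 25731 features. Between 35.6% and 45.5% of probes exceeded background on normal arrays, and between 44.6% and 54.5% on tumour arrays. The probe for eGFP, a fluorescent protein foreign to the mouse, read 9.5 to 10.2 on the 4 Notch-activated arrays and at most 5.48 on the other arrays. The probe for Cre read 5.09 to 5.39 on all 12 arrays, under the background limit also on those of Vil-Cre mice, so it does not tell the genotypes apart. Mib1 averaged 6.12 in Notch-inactivated and 6.40 in wild type normal tissue, and 6.23 against 6.75 in tumours, and neither difference passed the test (limma adjusted p = 0.182 and 0.153), and whether the probe lies in the deleted part is not known. Several members, among them Atp5k, Cox5b, Atp5c1 and Ndufab1, have pseudogene copies in RefSeq, and the member Ndufs5-ps is itself annotated as a pseudogene, so their signals may include a near-identical copy.

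In wild type mice, tumours carried less mRNA of most respiratory chain genes than normal tissue. Of 51 chain genes, 39 fell and 1 rose at an adjusted p under 0.05 in limma, where 23.3% of all features were lower and 21.5% higher. The median difference was -0.49 on the log2 scale, with quartiles of -0.74 and -0.29, against -0.02 over all features. Only 3.92% of the chain genes, against 47.8% of all features, had a positive difference. Tumour arrays also held more RNA of stromal and immune cells and less of mature absorptive cells (values below), and in bulk tissue fewer cells of a type cannot be told from less RNA per cell. With arrays centred on probes above background, 33 fell and 1 rose, with a median of -0.38. Over all features, this centring turned 5530 higher and 6004 lower into 7620 higher and 4478 lower.

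**Figure D1:**
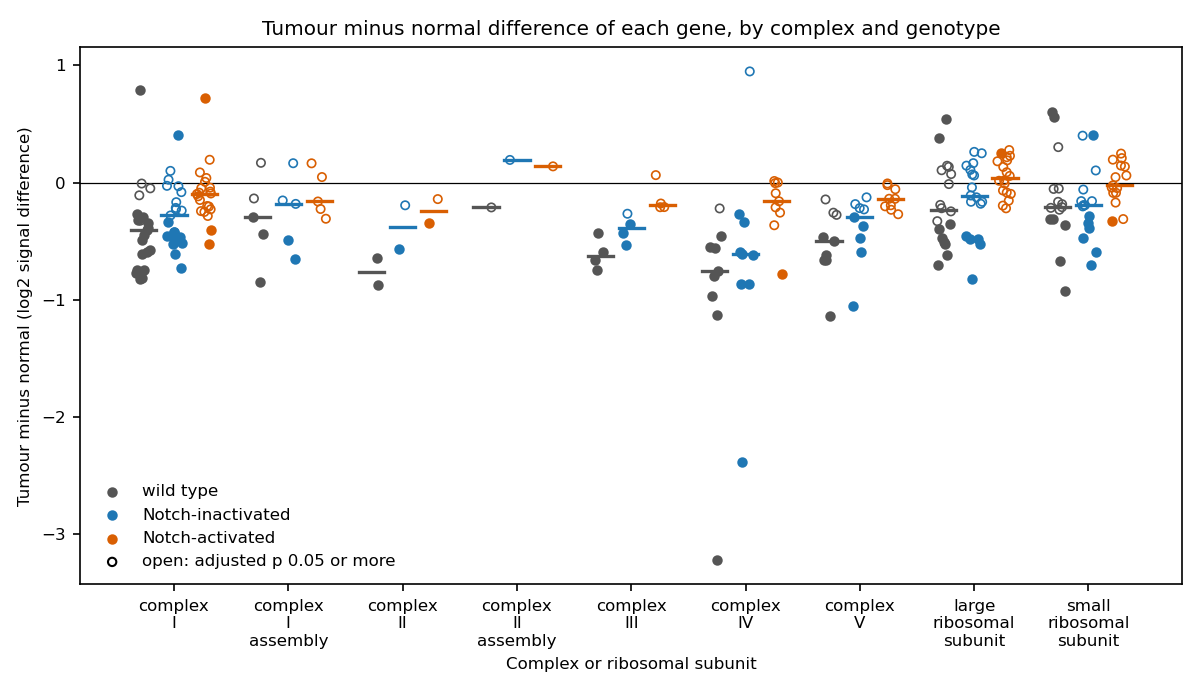
Tumour minus normal difference in log2 signal (vertical axis) of each measured gene, by complex or ribosomal subunit (horizontal axis) and genotype (colour). Filled points passed the test, open points did not, and bars mark medians. Complex IV in wild type mice has a median of -0.75, with Cox7a1 at -3.22, and the Notch-activated medians lie nearest to 0 in complexes I to V.

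In cytochrome c oxidase 8 of 9 measured genes fell, with a median of -0.75, and the chain's largest fall was among them. Cox7a1, the heart and muscle isoform of subunit VIIa, read 10.97 and 10.93 on the wild type normal arrays and 7.38 and 8.09 on the wild type tumour arrays. The groups did not overlap, and the difference of -3.22 (SE 0.18, n = 2 arrays each, limma adjusted p = 1.5e-06) was a 9.31-fold fall. Its probe is named after 2 leading zeros in the probe identifier, a class whose names are less firm than those after 1. Cox6a1, the ubiquitous isoform of subunit VIa, gave 13.20 and 13.31 on the normal arrays against 12.01 and 12.24 on the tumour arrays. It fell by 1.13 (SE 0.11, limma adjusted p = 2.63e-05), or 2.19-fold. Cox7b, Cox6b1, Cox5b, Cox8a and Cox6c, structural subunits of the same enzyme, fell by 0.97, 0.80, 0.75, 0.55 and 0.45. The exception was Cox7a2l, a factor that joins complexes III and IV into supercomplexes, at -0.22 (SE 0.36, adjusted p = 0.654), whose arrays ranged widely, from 9.35 to 11.44 over the 12.

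The 9 ATP synthase genes had 6 that fell and a median of -0.49. Atp5k, the e subunit of the membrane part, read 8.60 and 8.58 in wild type normal tissue and 7.44 and 7.47 in wild type tumour, without overlap. It fell by 1.14 (SE 0.14, limma adjusted p = 0.000116). Atp5g1, a gene for the rotor ring's c subunit, fell by 0.66, while Atp5g2, which encodes the same mature protein, stood at -0.14 (adjusted p = 0.326). Atp5c1, the central stalk's gamma subunit, fell by 0.46, Atp5h of the peripheral stalk by 0.66 and Atp5mpl, a small membrane subunit, by 0.49.

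All 4 measured genes of complex III fell, with a median of -0.62, among them the core protein Uqcrc1 by 0.74 (SE 0.10, limma adjusted p = 0.000306) and the ubiquinone-binding Uqcrb by 0.43. Both measured subunits of complex II fell. Sdhc, a membrane anchor, read 11.64 and 11.69 in wild type normal tissue and 10.69 and 10.89 in wild type tumour. Its groups did not overlap and it fell by 0.88 (SE 0.10, limma adjusted p = 9.35e-05). Sdhb, the iron-sulfur subunit, fell by 0.64.

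Complex I had 16 of 21 genes that fell and 1 that rose, with a median of -0.41, and 3 of 5 assembly factors fell. Among its accessory subunits, Ndufb7 fell by 0.82, Ndufa5 by 0.81, Ndufab1, the mitochondrial acyl carrier protein, by 0.77, and Ndufb9 by 0.74. Ndufa4 was the 1 chain gene that rose. It is named as a complex I subunit and has since been placed in cytochrome c oxidase, the complex whose other subunits mostly fell here. It read 12.04 and 12.38 on wild type normal arrays and 12.95 and 13.04 on wild type tumour arrays. The difference of 0.79 (SE 0.15, limma adjusted p = 0.00195) was positive with no overlap.

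**Figure D2:**
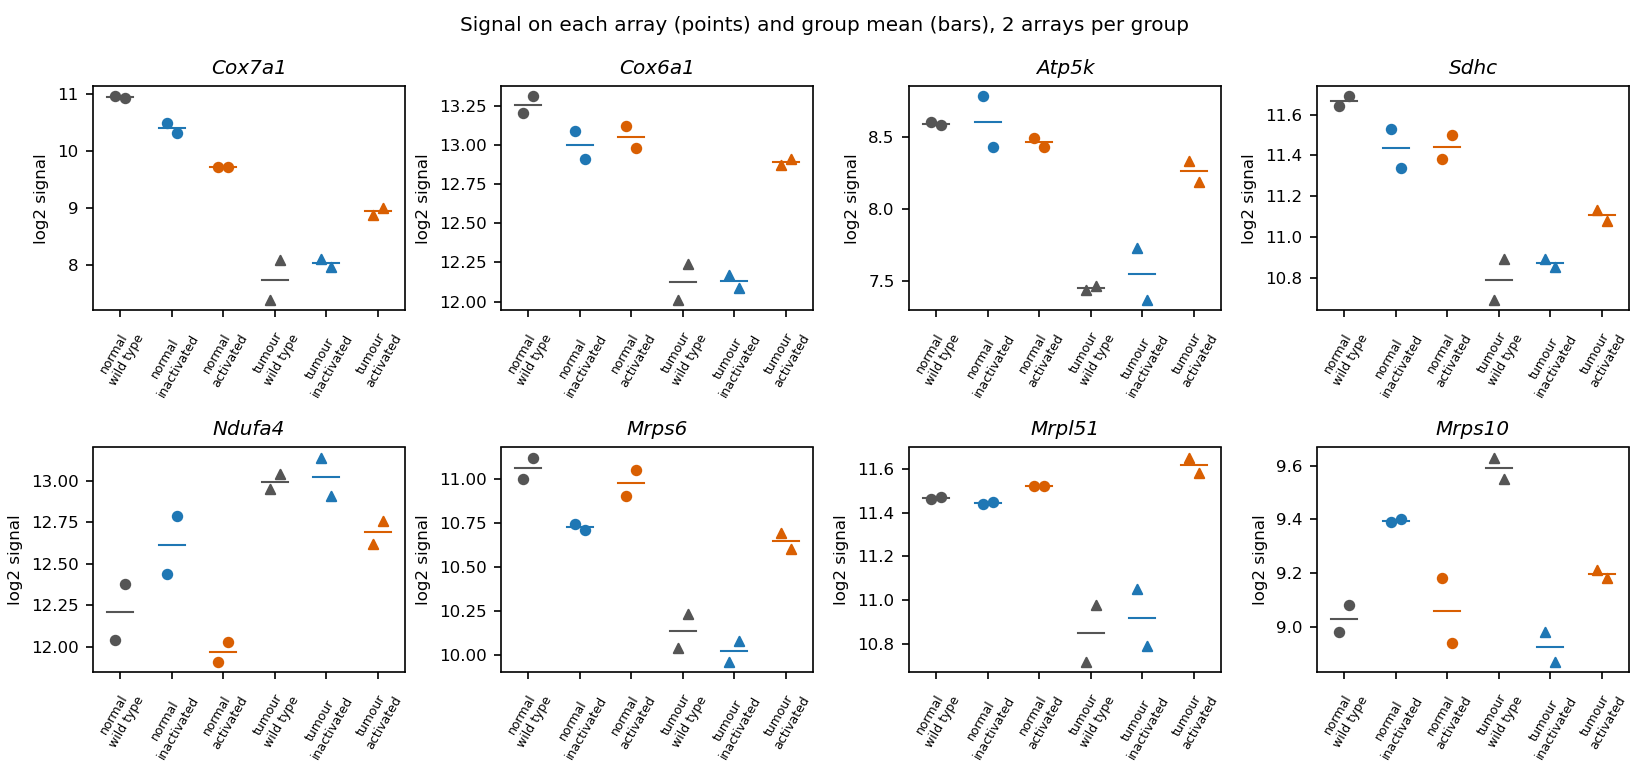
Log2 signal (vertical axis) on each array (points) with the group mean (bars) for 8 members in the 6 groups of 2 arrays; circles are normal tissue and triangles tumours. Cox6a1 reads 12.01 to 12.24 in wild type and Notch-inactivated tumours and 12.87 and 12.91 in Notch-activated tumours, and Ndufa4 is higher in tumour than in normal tissue in every genotype.

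The mitochondrial ribosome moved less and in both directions. Of 33 genes, 12 fell and 4 rose in wild type tumours, with a median of -0.21, and 27.3% of them had a positive difference. The large subunit had 7 falls and 2 rises of 18, and the small subunit 5 falls and 2 rises of 15. With arrays centred on probes above background, 9 fell and 5 rose with a median of -0.10, and without tumour wild type replicate 1, 10 passed in all (7 fell, 3 rose). Shares near 23.3% are the rate over all features, and 12 of 33 lies closer to it than the chain's 39 of 51.

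Mrps6, a protein of the small subunit, fell most. Its mean was 11.06 (SD 0.08) over the wild type normal arrays, of which the higher read 11.12, and the wild type tumour arrays read 10.04 and 10.23. The groups did not overlap, and Mrps6 fell by 0.93 (SE 0.10, limma adjusted p = 6.55e-05). Mrpl18, Mrps26, Mrpl51 and Mrpl30 fell by 0.70, 0.67, 0.61 and 0.52. The 4 that rose were Mrps5 by 0.60, Mrps10 by 0.56, Mrpl33 by 0.55 and Mrpl20 by 0.38. Mrpl20 had an adjusted p of 0.0452, and its call was lost under 11 of 21 alternatives.

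Tumours of Notch-inactivated mice showed the same direction. There, 29 chain genes fell and 1 rose (features lower 23.4%, higher 22.8%), with a median of -0.34. Over all features, the centring on probes above background gave 7631 higher and 4645 lower against 5864 and 6022. All 29 had also fallen in wild type tumours, which is 74.4% of the wild type list, where 39 of all 51 chain genes had fallen. These comparisons share no arrays, but both use the same estimate of each gene's spread from all 12 arrays, so they are not independent. Cox7a1 read 10.50 and 10.33 on normal and 8.10 and 7.97 on tumour arrays and fell by 2.38 (SE 0.18, limma adjusted p = 9.59e-06). Atp5k fell by 1.06, Cox6a1 and Cox7b by 0.87 each and Ndufb7 by 0.73. Ndufa4 rose by 0.41 (adjusted p = 0.0478), a call lost under 12 of 21 alternatives. Of the ribosome, 11 genes fell and 1 rose, Mrps5 by 0.41 (8 fell and 4 rose with the centring on probes above background). Of the 11, 9 (81.8%) had fallen in wild type tumours, where 12 of all 33 ribosomal genes had. Among these, Mrpl18 fell by 0.82 and Mrps6 by 0.71 here.

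In Notch-activated mice few chain genes passed the test between tumour and normal tissue, although most had a negative difference. There, 4 genes fell and 1 rose (features lower 11.7%, higher 11.2%), with a median of -0.14, and 1 ribosomal gene fell and 1 rose with a median of 0.02. The 4 falls were Cox7a1 by 0.78 (SE 0.18, limma adjusted p = 0.0149), Ndufab1 by 0.52, Ndufb7 by 0.40 and Sdhc by 0.34. Cox7a1 read 9.72 on each of its normal arrays and 8.88 and 9.01 on tumour arrays. Ndufa4 rose by 0.72 (SE 0.15, adjusted p = 0.00882). Cox6a1, at 13.12 and 12.98 in normal and 12.87 and 12.91 in tumour tissue, stood at -0.16 (adjusted p = 0.312), and Cox5b, Cox6c and Cox8a lay between -0.00 and 0.01. The ribosomal calls were Mrps6, down by 0.33, and Mrpl33, up by 0.25 (adjusted p = 0.0468), the latter lost under 14 of 21 alternatives. These counts are small, and fewer members passed without any 1 of the 4 Notch-activated arrays. Such a fit leaves 1 array in a group, and calls over all features dropped as well. The ribosome's calls also became fewer without some arrays of the other genotypes. With each array left out in turn, the chain's median ranged from -0.18 to -0.09 and the ribosome's from -0.03 to 0.05. With arrays centred on probes above background, 2 ribosomal genes rose and 0 fell, and over all features 3504 were higher and 2345 lower against 2878 and 3022.

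**Figure D3:**
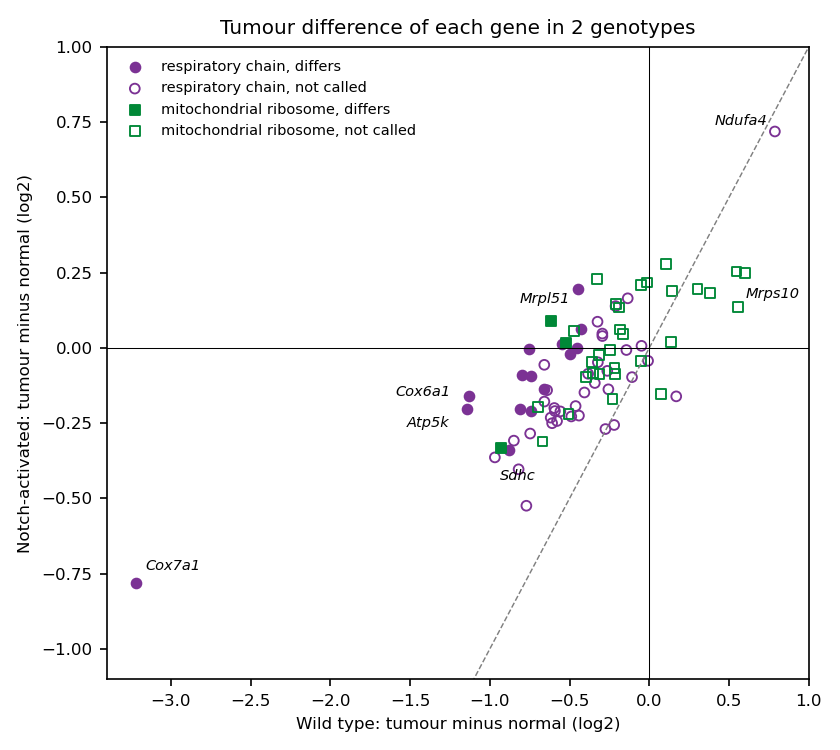
Tumour minus normal difference in log2 signal in Notch-activated mice (vertical axis) against that in wild type mice (horizontal axis), 1 point per gene; the dashed line marks equal differences and the axes have different scales. Filled points are genes whose difference between the genotypes passed the test, and all 18 of them lie above the line; Cox7a1 lies at -3.22 and -0.78.

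Set against wild type tumours, Notch-activated tumours had more mRNA of many chain genes. This comparison shares its tumour arrays with those above. Of 51 genes, 24 rose and 0 fell (features higher 9.59%, lower 9.17%), with a median of 0.33, and 98% had a positive difference against 52.6% of all features. With the centring on probes above background 20 rose and 0 fell, and over all features 1938 were higher and 3182 lower against 2467 and 2360. Cox7a1 was higher by 1.21 (SE 0.18, limma adjusted p = 0.00138), Cox7b by 0.84, Atp5k by 0.81, Cox6a1 by 0.77 and Ndufb9 by 0.67. Complex IV had 8 rises of 9, complex I 7 of 21, complex III 3 of 4 and complex V 3 of 9. Of 33 ribosomal genes 11 rose and 1 fell, with a median of 0.27. Mrpl51, a large-subunit protein, read 10.72 and 10.98 in wild type tumours and 11.65 and 11.58 in Notch-activated tumours, without overlap, and was higher by 0.76 (SE 0.11, limma adjusted p = 0.00114). Mrpl30, Mrps26, Mrps18b and Mrpl42 were higher by 0.67, 0.63, 0.60 and 0.55. The chain's count was 9 without tumour wild type replicate 1 and 8 without tumour Notch-activated replicate 1, with medians of 0.31 in both, and the ribosome's total of 12 became 4 without either of these and 7 without tumour Notch-activated replicate 2.

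The difference between the genotypes was also tested directly, as the Notch-activated effect in tumour minus that in normal tissue. This test reuses the normal and tumour arrays above. Its value equals the Notch-activated tumour minus normal difference less the wild type one, so it is no further evidence. Of the chain, 15 genes passed with a positive value and 0 with a negative one (features higher 5.74%, lower 4.8%), with a median of 0.38. Cox7a1 had the largest value at 2.44 (SE 0.26, limma adjusted p = 0.000725), ahead of Cox6a1 at 0.97 (SE 0.15, adjusted p = 0.00392), Atp5k at 0.94, Cox5b at 0.75 and Cox6b1 at 0.71. These values hold shifts in both tissues. In normal tissue, Notch-activated minus wild type was -1.23, -0.20, -0.13, -0.29 and -0.35 for these genes in turn. In tumours it was 1.21, 0.77, 0.81, 0.45 and 0.36. Of the 15, 6 belong to complex IV, 3 each to complexes I and V, 2 to complex III and 1 to complex II. Of the ribosome, Mrpl51 (0.70), Mrps6 (0.60) and Mrpl30 (0.54) passed and none was negative, with 4 calls (3 positive, 1 negative) under the centring on probes above background. For Cox5b and Mrpl51, the mean over each gene's 2 probes no longer passed. The chain's 15 became 8 under the centring on probes above background, and over all features that centring gave 1236 higher and 1552 lower against 1477 and 1234. It became 5 without normal wild type replicate 2, 9 without replicate 1, 4 without normal Notch-activated replicate 2, 5 without tumour wild type replicate 1, 4 without tumour Notch-activated replicate 1, 8 without replicate 2 and 9 without either Notch-inactivated tumour array, with medians from 0.33 to 0.44 over all 12 arrays left out. The ribosome's 3 became 0 without normal wild type replicate 2 or tumour Notch-activated replicate 1, and 1 without normal Notch-activated replicate 1 or tumour wild type replicate 1.

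In normal tissue the genotypes differed at few members. In Notch-activated normal tissue, Cox7a1 was lower than in wild type by 1.23 (SE 0.18, limma adjusted p = 0.00327) and Cox6b1 by 0.35 (adjusted p = 0.0454, lost under 11 of 21 alternatives), of 51 chain genes (features lower 3.82%, higher 3.29%). Of the ribosome, only Mrpl33 passed, higher by 0.51 (SE 0.08, adjusted p = 0.00438), with arrays at 11.31 and 11.25 against 10.74 and 10.80. In Notch-inactivated normal tissue (features lower 1.76%, higher 1.91%), Ndufa6, an accessory subunit of complex I, was lower by 0.47 (adjusted p = 0.0474), and Mrpl33 was higher by 0.35 (adjusted p = 0.0452). Both of the latter calls were lost under 16 of 21 alternatives.

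Notch-inactivated and wild type tumours did not differ measurably in the chain. Of 51 genes 0 passed (features higher 0.0933%, lower 0.0816%), and the median was 0.03. Only Mrps10, a protein of the small ribosomal subunit, passed. It read 9.63 and 9.55 in wild type tumours and 8.98 and 8.87 in Notch-inactivated tumours, lower by 0.66 (SE 0.10, limma adjusted p = 0.0364), a call lost under 12 of 21 alternatives. The normal arrays gave 8.98 and 9.08 for wild type and 9.39 and 9.40 for Notch-inactivated mice. Its tumour difference was thus 0.56 in wild type and -0.47 in Notch-inactivated mice, the sole member whose calls had opposite signs in these 2 genotypes. The Notch-inactivated effect in tumour minus that in normal tissue was -1.02 (SE 0.14, limma adjusted p = 0.0144; features higher 0.233%, lower 0.393%) and was lost only without tumour Notch-inactivated replicate 2, and 0 of the 51 chain genes passed this test. Mrps10 was also lower in Notch-activated than in wild type tumours, by 0.40 (adjusted p = 0.0183).

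Few of the chain subunits encoded by mitochondrial DNA passed the test in wild type tumours. The array held probes for all 13, and in wild type tumours 1 rose and 2 fell (features lower 23.3%, higher 21.5%). Their median was -0.02 against the nuclear genes' -0.49. Their mean signal was 12.05 and 11.68 on wild type normal arrays and 11.98 and 11.84 on wild type tumour arrays, which overlap. COXI, the catalytic subunit of complex IV, chosen here after its values were seen, rose by 0.89 in wild type, 0.58 in Notch-inactivated and 1.33 (SE 0.20, limma adjusted p = 0.00185) in Notch-activated tumours. In Notch-activated tumours 1 rose and 5 fell of the 13 (features lower 11.7%, higher 11.2%), with a median of -0.19, and 0 differed from wild type tumours. Of the 51 nuclear chain genes, 4 fell there. Several of these probes, such as that for ND4, read at or near the arrays' highest value, where differences are compressed.

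Other mitochondrial genes were read in lists. Of 20 measured assembly factors and carriers, 13 fell and 0 rose in wild type tumours (median -0.65). In Notch-inactivated tumours 13 fell and in Notch-activated tumours 2, and 10 were higher in Notch-activated than in wild type tumours. Over all features, 23.3%, 23.4% and 11.7% were lower in tumours of these 3 genotypes in turn, so the 2 lie near that share. Between Notch-activated and wild type tumours, 9.59% of features were higher. Cyc1, cytochrome c1 of complex III, fell by 0.90 in wild type tumours and Cox15, which makes heme A for complex IV, by 0.87. Cox17, a copper chaperone of complex IV, fell in all 3 genotypes, by 0.87, 0.80 and 0.74. Of 7 citric acid cycle genes, 5 fell and 1 rose in wild type tumours, Suclg2 of succinyl-CoA ligase by 1.38 and Ogdh of the 2-oxoglutarate dehydrogenase by 1.30. Idh3b, a subunit of isocitrate dehydrogenase, rose by 0.48. Ppargc1b, a coactivator of mitochondrial genes, read 9.68 and 9.98 on wild type normal arrays, 6.65 and 7.21 on wild type tumour arrays and 8.55 and 8.31 on Notch-activated tumour arrays. It fell by 2.90 in wild type tumours (SE 0.26, limma adjusted p = 1.75e-05) and by 2.21 in Notch-inactivated tumours, and stood at -0.50 (adjusted p = 0.185) in Notch-activated tumours.

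Mitochondrial translation genes and import and chaperone genes had no commoner direction of calls in wild type tumours, with shares under those over all features (21.5% higher, 23.3% lower). Of 15 mitochondrial translation genes 3 rose and 3 fell, with the initiation factor Mtif3 down by 1.39 and the valyl-tRNA synthetase Vars2 up by 1.12. Of 12 import and chaperone genes 2 rose and 2 fell, and the partner chaperonins Hspe1 and Hspd1 rose by 0.88 and 0.67. Of 7 biogenesis genes 2 rose, among them Ssbp1, which coats single-stranded mitochondrial DNA, by 0.75, and 1 fell, Ppargc1b. Of 75 cytosolic ribosomal genes 33 rose and 2 fell, with a median of 0.26, opposite in sign to the mitochondrial ribosome's -0.21.

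Most colonocyte and enterocyte markers fell in wild type and Notch-inactivated tumours, as most chain genes did. Over all features, 23.3%, 23.4% and 11.7% were lower in tumours of wild type, Notch-inactivated and Notch-activated mice. Between Notch-activated and wild type tumours, 9.59% were higher. Of 6 measured colonocyte markers, 5 fell in wild type and in Notch-inactivated tumours and 1 in Notch-activated tumours, and 4 were higher in Notch-activated than in wild type tumours. Slc5a8, the butyrate transporter of the colon, fell by 4.03 in wild type tumours, and Selenbp1, a selenium-binding protein, fell by 4.65. The log2 of the list's summed signal was 14.45 and 14.75 on wild type normal arrays, 10.70 and 11.77 on wild type, 10.62 and 10.89 on Notch-inactivated and 13.15 and 12.34 on Notch-activated tumour arrays. Some colonocyte markers also differed from wild type in normal tissue. Slc5a8 and Selenbp1 did so in Notch-inactivated mice, and Car1 and Mettl7b in Notch-activated mice. Slc5a8 also passed the test between Notch-inactivated and wild type tumours, where no chain gene did. Of 5 enterocyte markers, 4 fell in wild type and 3 each in Notch-inactivated and Notch-activated tumours. Among them, Mep1b and Slc5a1 also passed the test between Notch-activated and wild type tumours. Of 5 measured general epithelial markers, 1 rose (Krt18) and 1 fell (Krt19) in wild type tumours, 2 fell in Notch-inactivated tumours (Krt8 and Krt19) and 0 passed in Notch-activated tumours, while 1 (Krt19) was higher in Notch-activated than in wild type tumours and normal tissue. Their summed signal was 14.02 to 14.54 over all tumours and 14.30 to 14.49 over all normal arrays.

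Myeloid and stromal markers moved the other way. All 7 measured myeloid markers rose in each genotype's tumours and 4 were lower in Notch-activated than in wild type tumours (features lower 9.17%). Over all features, 21.5%, 22.8% and 11.2% were higher in tumours of wild type, Notch-inactivated and Notch-activated mice. On the same log2 scale their summed signal ranged from 8.38 to 9.25 over the normal arrays, 12.44 to 12.93 on tumour arrays of wild type or Notch-inactivated mice and 11.64 and 11.87 on Notch-activated tumour arrays. Of 6 fibroblast markers, 5 rose in wild type tumours, 6 in Notch-inactivated and 5 in Notch-activated ones, and all 4 endothelial markers rose in each. Of 7 proliferation genes 5, 3 and 1 rose in tumours of these genotypes in turn, and the last count lies near the 11.2% over all features. Of the 16 muscle genes listed, only Acta2, which rose by 1.26 in wild type tumours, and Synpo2, which fell by 0.71, were measured. Of 3 goblet cell markers 2 fell in wild type tumours, and of 6 Paneth cell markers 4 rose and 1 fell (features lower 23.3%, higher 21.5%). The part of cell composition in the chain's differences was not tested.

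**Figure D4:**
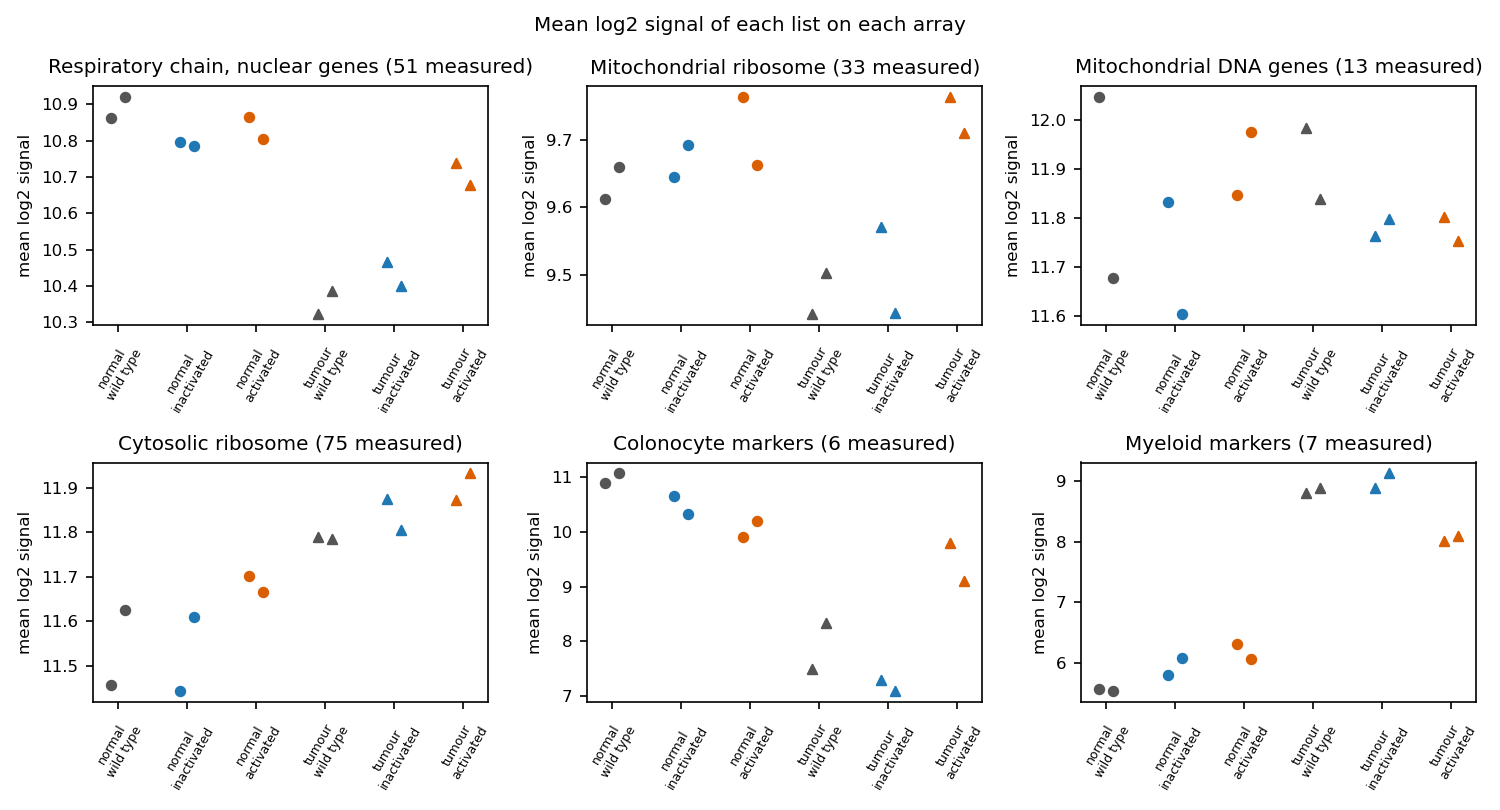
Mean log2 signal (vertical axis, a separate scale in each panel) of 6 gene lists on each of the 12 arrays (points; circles normal, triangles tumour). The nuclear chain genes and the colonocyte markers are both lowest in wild type and Notch-inactivated tumours, while the mitochondrial DNA genes overlap between normal tissue and tumours.

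Genes with several measured probes gave a check within the array. Of the 8 genes with 2 measured probes each, Cox6a1, Cox6b1, Cox5b, Mrpl51 and Ndufs3 fell on both in wild type tumours. Neither probe of Mrpl1 (-0.01 and -0.16) or Ndufs4 (-0.11 and 0.06) passed the test, and those of Ndufs4 differed in sign. For Cox6a1 the second probe fell by 1.05 and for Cox6b1 by 0.68. The second probes of Cox5b and Mrpl51 stood at -0.50 and -0.34 in Notch-activated tumours, without passing the test, where the probes used above stood at -0.00 and 0.09. Atp5md's brighter probe did not pass in wild type tumours (-0.26, adjusted p = 0.0604) and its dimmer one did (-0.50). No member had probes that passed in opposite directions. With names after 1 leading zero only, which leaves out Cox7a1, 28 chain genes fell and 1 rose in wild type tumours, with a median of -0.52.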

How the data were processed

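Gene expression was measured on Illumina bead arrays in 12 samples; per the labels' protocols, biotinylated cRNA was made from total RNA (Trizol, then RNeasy). The deposited series values, 1 per probe and array, read as log2 signals that the authors normalized so that all arrays share 1 distribution (sorted columns differ by at most 0.000543); how background was corrected, and the log base, are not stated. A second table was not used, since its 24 per-sample columns could not be tied to samples. Of 46628 probes, 627 controls were left out, and 26570 exceeded, on at least 2 arrays, the 95th percentile of 29 probes foreign to the mouse (5.5 to 5.8). Probe identifiers were read as NCBI gene numbers after 1 or 2 leading zeros and named through RefSeq: 81.1% and 84.8% matched a gene, against 15.4% and 18.2% after a shift of the numbers by 5000. Of the members' probes, 69 have 1 zero and 32 have 2; cytosolic ribosomal probes had a median of 13.01 after 1 zero and 6.08 after 2. The brightest probe stood for a gene. limma 3.58.1 (R 4.3.3) fitted the 6 group means to all 12 arrays, with Benjamini-Hochberg adjustment over 25731 features in each of 9 comparisons, and was tested on simulated data. The number of arrays limits the precision: 6 residual degrees of freedom and a typical SD of 0.116. Genes named are core subunits and isoforms, the 5 called with the largest rise and fall per comparison, those called against their complex's direction, those whose probes disagree, the leading 2 of other lists, and those that differ between genotypes; mitochondrial DNA probes fall outside this rule. Members and lists were chosen with earlier results of these data known. Replicate numbers are not said to pair samples, so no block was used; deviations of same-numbered arrays correlated between -0.3755 and 0.3301. Alternatives changed the scaling, filter, probe rule, naming, variance model, arrays fitted and replicate block, and left out each array in turn.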

Additional observations from a re-analysis of the deposited data

Results flagged for a closer look

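Of the measured members, 18 had a tumour difference that differed between Notch-activated and wild type mice by the direct test (limma, adjusted p under 0.05), and all 18 values were positive. On the log2 scale, the values for complex IV were 2.44 for Cox7a1, 0.97 for Cox6a1, 0.75 for Cox5b, 0.71 for Cox6b1, 0.56 for Cox8a and 0.45 for Cox6c. For complex V they were 0.94 for Atp5k, 0.52 for Atp5h and 0.47 for Atp5mpl, and for complex I 0.65 for Ndufb9, 0.64 for Ndufb3 and 0.61 for Ndufa5. Complexes III and II gave 0.53 for Uqcrc1, 0.49 for Uqcrb and 0.54 for Sdhc. The ribosome gave 0.70 for Mrpl51, 0.60 for Mrps6 and 0.54 for Mrpl30.

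Outside the members, the same test passed, among other genes, with 2.40 for Ppargc1b, 1.28 for Ogdh and 0.87 for Suclg2. Carriers and assembly factors gave 0.87 for Cycs, which is cytochrome c, 0.62 for Cyc1, 0.76 for Cox15, and 0.71 and 0.65 for Ecsit and Acad9, both assembly factors of complex I. The colonocyte markers Slc5a8 and Selenbp1 had 3.43 and 3.25. Markers of other cell types passed as well. They include Mep1b and Slc5a1 of enterocytes, Krt19 of epithelium, and Muc4 and Bcas1 of goblet cells. Lyz1 and Defa5 of Paneth cells, Lyz2 and C1qb of myeloid cells and Mgp of fibroblasts also passed. Vars2 had a negative value of -1.31. For the Notch-inactivated effect, Mrps10 alone among the members passed, at -1.02. Groups of 2 arrays are too small for a test of outlying samples.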

How the results depend on the processing

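The counts of calls pool both directions, so a change of direction was not scored for them. No called value of a named member changed direction under any alternative. Medians near 0 did: that of the ribosome in Notch-activated tumours against normal tissue (0.02) ranged from -0.03 to 0.05 with 1 array left out, that of the chain between Notch-inactivated and wild type tumours (0.03) from -0.01 to 0.10, and those of the ribosome for Notch inactivation from -0.02 to 0.06 in normal tissue, -0.04 to 0.12 in tumours and -0.02 to 0.10 for the difference of effects. The ribosome's median between Notch-activated and wild type normal tissue (0.03) was just under 0 with cyclic loess. Of the counts of called genes, 299 alternatives stayed within 1.5 times the reported count and 97 did not, 22 of them without leaving out an array, and of the values of named members 3033 kept their side of the threshold, 289 lost it and 17 gained it. For the chain in Notch-activated mice, the 5 calls between tumour and normal tissue became 3 with arrays centred on probes above background, 2 with names after 1 leading zero and 3 with the replicate block. The ribosome's 2 became 1 with cyclic loess, 0 with a variance trend, 0 with only the groups compared and 1 with the replicate block. Between Notch-inactivated and wild type normal tissue, the chain's 1 call became 0 with centring, a trend, only the groups compared or the replicate block, and the ribosome's 1 became 0 with cyclic loess, a trend, only the groups compared or the replicate block. Between Notch-activated and wild type normal tissue the chain's 2 became 0 with names after 1 zero and 1 with only the groups compared or the replicate block. Between Notch-inactivated and wild type tumours the ribosome's 1 became 0 with a trend or only the groups compared. For the difference between Notch-activated and wild type effects, the chain's 15 became 8 with centring and 9 with only the groups compared. The cause of these changes was not tested, apart from the fewer arrays and genes that some alternatives use by construction.

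Leaving out each array in turn gave 34 to 40 chain and 10 to 16 ribosomal calls in wild type, 22 to 31 and 9 to 12 in Notch-inactivated, and 0 to 5 and 0 to 3 in Notch-activated tumours against normal tissue. Against wild type normal tissue, it gave 0 to 1 chain and 0 ribosomal calls for Notch-inactivated, and 1 to 2 and 1 for Notch-activated tissue. Against wild type tumours it gave 0 to 1 and 0 to 1 for Notch-inactivated, and 8 to 26 and 4 to 13 for Notch-activated tumours. For the difference between tumour and normal effects it gave 4 to 13 and 0 to 3 for Notch activation, and 0 to 1 and 0 to 1 for Notch inactivation.

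Deviations of same-numbered arrays correlated with no common sign over the 7 comparisons (from -0.3755 to 0.3301), so the numbers are not taken as pairs; with the replicate block the chain had 38 calls in wild type and 31 in Notch-inactivated tumours, 22 between Notch-activated and wild type tumours and 11 for the difference of effects. With 2 arrays a group, and 6 residual degrees of freedom, small differences were not detectable, and probes near the background limit or near the highest value understate differences.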
